A study of Mus musculus with 14 samples.

Results

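Potassium channel genes of the mouse were taken as the 94 protein-coding genes of GRCm38 whose symbol begins with Kcn and a further letter, out of 21887 protein-coding genes in all. A PRDM16 peak was assigned to such a gene when the gene body was the nearest to the peak summit, which gave 145 of the 17587 wild-type peaks at 45 of the 94 genes. PRDM16 is a zinc-finger transcription factor of the compact myocardium, and its binding was measured by chromatin immunoprecipitation and sequencing (ChIP-seq) in ventricles at E13.5, a day of embryonic development,. All 14 samples came from C57BL/6 embryos. Wild-type hearts without atria (genetic manipulation "Mock" in the labels) gave 2 PRDM16 libraries, and Prdm16 conditional knockout hearts (Prdm16cKO) gave 1. Every whole-heart sample pooled 3 hearts of 1 genotype. Wild-type left ventricles (LV) and right ventricles (RV) gave 2 PRDM16 libraries each, with 10 to 12 ventricles per pool. The remaining 7 samples were inputs without antibody. Which Cre line drove the knockout is not stated in the labels. No gene expression was measured, so that the labelled tissue could not be checked against marker genes.

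Potassium channels carry the outward current that ends the cardiac action potential and holds the resting potential. Voltage-gated members open on depolarisation, inward rectifiers (Kcnj) hold the resting potential or respond to G proteins or ATP, tandem-pore members (Kcnk) carry background current, and calcium- or sodium-activated members (Kcnm, Kcnn, Kcnt, Kcnu) follow the ion content of the cell. Auxiliary subunits such as Kcne, Kcnip and Kcnab tune the gating of the pore proteins. Many members of the family act mainly in neurons, so that the family holds genes of heart muscle and genes of the nervous system side by side.

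Wild-type PRDM16 peaks were nearest to 45 of 94 potassium channel genes (47.9%), against 32.9% of all protein-coding genes. These genes had a median length of 32.7 kb, against 17.2 kb over all genes, and the sequence nearest to a gene had a median of 95.5 kb against 45 kb. Counted per sequence, the family had 5.80 peaks per Mb of nearest sequence, below the 6.46 over all genes. Of the 45 genes, 13 had 1 peak and 10 had at least 5 (10.6% of the 94 members, against 4.39% of all genes). The median fold enrichment of the 145 peaks (ChIP over background, as the authors' peak caller gave it) was 3.88, against 4.0 over all peaks, with a range of 1.70 to 17.5. A fold enrichment of at least 5 was reached by 39 of the 145 peaks (26.9%), against 26.1% of all peaks. As a whole, the family thus lay near all genes in strength and in density per sequence, and its members differed widely from each other. With 1 wild-type peak list and no values per library, these counts carry no test.

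**Figure D1:**
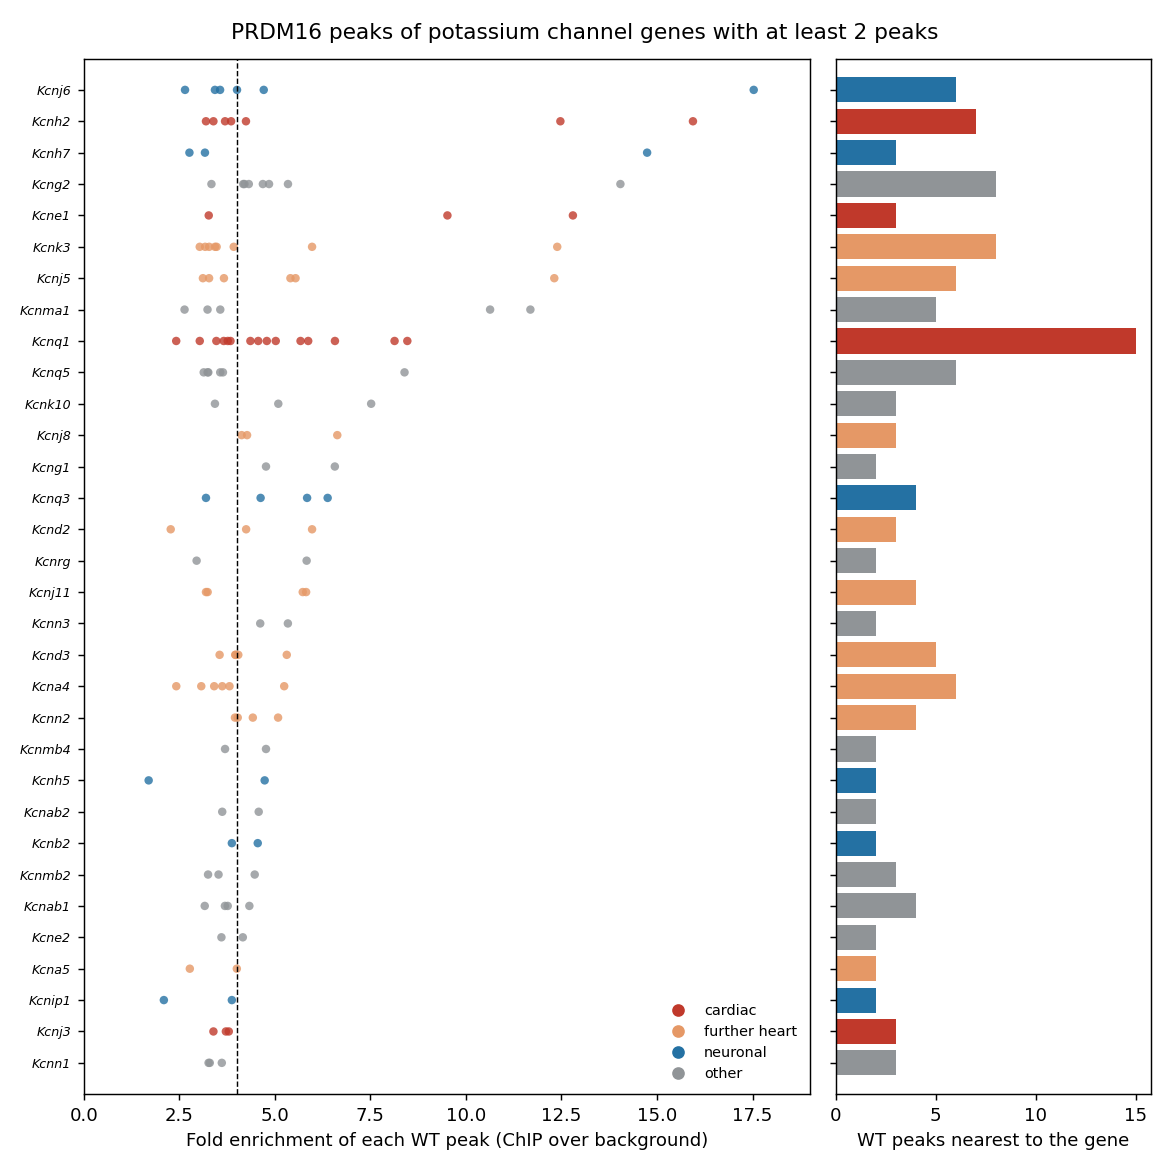
The left panel shows the fold enrichment of each wild-type PRDM16 peak (x axis, ChIP over background) of the potassium channel genes with at least 2 peaks (rows, ordered by the strongest peak), with colours for the gene lists and a dashed line at the median of all peaks, 4.0. The right panel shows the number of peaks of each gene, in which Kcnq1 with 15 peaks stands above the others, none of which has more than 8.

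Of the 69 members with an entry in the RefSeq promoter table (GRCm38.p6; 250 bases before to 50 after a transcription start), 6 had a peak over such a window (8.70%), against 9.24% of all genes in the table. They were Kcna4, Kcnh2, Kcnn1, Kcnj5, Kcnmb4 and Kcne2. The 250 bases before the start are shown for the 3 of them in the heart lists and for Kcne2, of the same family as Kcne1. The starts used here for Kcnh2 and Kcne2 lie inside the gene body. Each runs 5′ to 3′ in the direction of transcription, and capitals mark matches to the motifs named after them.
Kcna4, chr2:107290339-107290588, plus strand: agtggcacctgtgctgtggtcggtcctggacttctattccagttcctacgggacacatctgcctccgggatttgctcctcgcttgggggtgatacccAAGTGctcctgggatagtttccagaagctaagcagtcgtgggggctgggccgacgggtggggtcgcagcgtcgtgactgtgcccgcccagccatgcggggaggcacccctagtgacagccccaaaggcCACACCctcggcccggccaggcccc
Kcnh2, chr5:24329592-24329841, minus strand: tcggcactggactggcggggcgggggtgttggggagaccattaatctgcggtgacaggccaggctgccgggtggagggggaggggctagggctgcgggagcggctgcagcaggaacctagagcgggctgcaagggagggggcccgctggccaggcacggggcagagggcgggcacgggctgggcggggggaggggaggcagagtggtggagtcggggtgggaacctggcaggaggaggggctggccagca
Kcnj5, chr9:32344345-32344594, minus strand: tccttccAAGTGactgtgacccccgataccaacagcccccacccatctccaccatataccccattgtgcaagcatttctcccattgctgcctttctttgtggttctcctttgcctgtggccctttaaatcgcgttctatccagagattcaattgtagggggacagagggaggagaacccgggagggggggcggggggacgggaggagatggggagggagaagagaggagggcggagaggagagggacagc
Kcne2, chr16:92295366-92295615, plus strand: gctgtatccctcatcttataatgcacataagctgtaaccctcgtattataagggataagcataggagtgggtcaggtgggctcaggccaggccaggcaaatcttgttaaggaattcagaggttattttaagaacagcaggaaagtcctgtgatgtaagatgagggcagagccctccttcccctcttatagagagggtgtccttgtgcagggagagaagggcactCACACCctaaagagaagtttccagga

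The peak of Kcna4, a voltage-gated channel of a rapidly inactivating current, covered all 250 of these bases, with its summit 73 bp before the start and a fold enrichment of 5.25. Kcnh2 is known to give a shorter form from an internal start. The peak there covered 133 of the 250 bases, with the summit 233 bp before that start and a fold enrichment of 3.39. At Kcnj5, a subunit of the G protein-gated channel of the heart, the summit lay 33 bp before the start and 122 bases were covered (3.67). At Kcne2, an auxiliary subunit, it lay 182 bp before the start and 183 bases were covered (fold enrichment 3.604). The other promoter peaks were those of Kcnn1 (3.27) and Kcnmb4 (3.70), a subunit of large-conductance calcium-activated channels, with summits 86 and 51 bp after the start. These starts also lie inside the gene body, at 70863258 for Kcnn1 (5′ end at 70865691) and 116473523 for Kcnmb4 (5′ end at 116473859). Only the Kcna4 peak lay above the median of all peaks. The 6 windows of 300 bases were searched on both strands for short motifs of heart factors, and no 2 matches overlapped. The NKX2-5 core AAGTG was in 2 of 6 (Kcna4 and Kcnj5), against 45.2% of 21263 promoters of protein-coding genes, and the T-box core GGTGTG was in 2 of 6 (Kcna4 and Kcne2), against 18.4%. Only the Kcna4 matches lay under the peak. The matches of Kcnj5 and Kcne2 lay in the part of the window that the peak did not cover. The TEAD core GGAATG was in 0 of the 6 (13.6% of promoters). The GATA core was searched as AGATAA and, in its other form, as TGATAA, and was in 0 of the 6 (15.9%). The E-box CACGTG was in 0 of the 6 as well (7.84%). With 6 windows, these shares are a description only.

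All 5 channel genes taken as cardiac had a wild-type peak: Kcnq1, Kcnh2, Kcnj2, Kcnj3 and Kcne1. They held 29 peaks, 15.1 per Mb of nearest sequence, with a median fold enrichment of 4.25. Kcnq1 alone held 15 of the 29, and the genes differed. Per 100 kb of nearest sequence, Kcne1 had 8.33 peaks, Kcnh2 6.60, Kcnq1 4.39, and Kcnj2 and Kcnj3 0.28 each. Of 12 further members known in heart muscle, 10 had a peak (83.3%, 42 peaks, 8.97 per Mb, median 3.97). Of 20 neuronal members, 9 had a peak (45%, 22 peaks, 2.90 per Mb, median 3.80). The remaining 57 members had peaks at 21 genes (36.8%, 52 peaks, 4.80 per Mb, median 3.70). The share of genes with a peak was thus above the 32.9% of all genes in each list. Over all genes, the median length of nearest sequence was 45 kb. The order of the lists was thus cardiac, further heart, other and neuronal in peaks per sequence, with 2 lists above and 2 below the 6.46 of all genes. The lists were chosen with earlier results of these data known, so that this order is a description and no independent support. The median length of nearest sequence was 342 kb for cardiac and 295 kb for neuronal members, and median gene length was 32.1 kb and 57.2 kb. Of the 7575.5 kb nearest to neuronal members, Kcnip4 and Kcnv1, both without a peak, made up 1354 and 1406 kb. At a fold enrichment of at least 5, cardiac members had 11 peaks (37.9% of theirs) and neuronal members had 4 (18.2%), at 3 genes. Of all peaks, 26.1% reached that level. Gene activity and open chromatin were not measured in these samples, and their part in these counts was not tested.

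**Figure D2:**
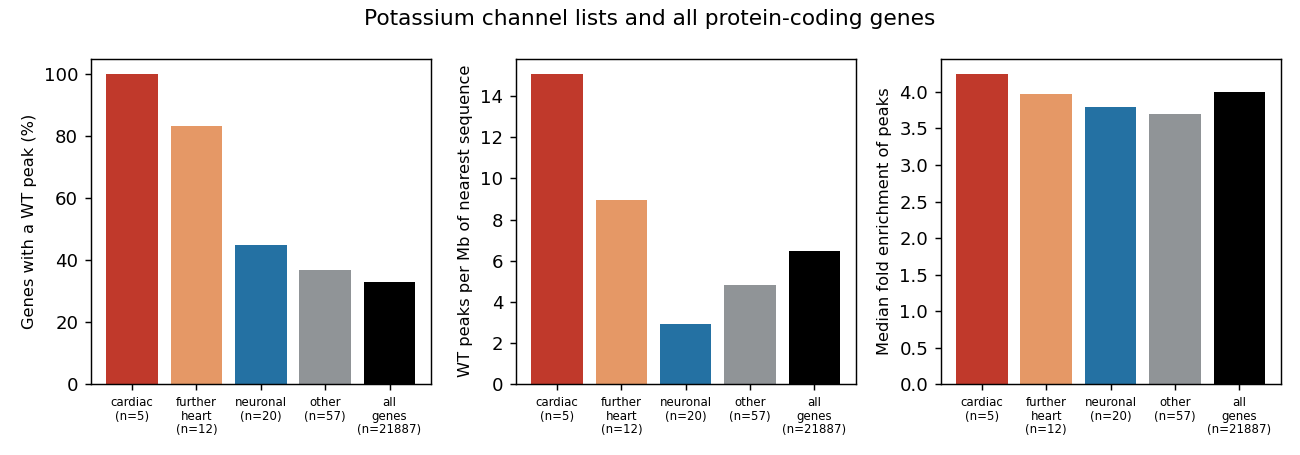
Bars give, for the cardiac, further heart, neuronal and other potassium channel lists and for all protein-coding genes, the percentage of genes with a wild-type peak (left), peaks per Mb of sequence nearest to the genes (middle) and the median fold enrichment of their peaks (right); there are no replicates and no error bars. Peaks per Mb go from 15.1 (cardiac) to 2.90 (neuronal) around the 6.46 of all genes, while the medians of fold enrichment stay between 3.70 and 4.25. The lists were chosen with earlier results of these data known.

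Kcnq1 encodes the pore subunit of the slow delayed rectifier. With 15 peaks, all inside its 320 kb gene body on chromosome 7, it had the most of any member. Cut at the 2 widest gaps between summits, these peaks fell into 3 runs. A run of 4 peaks spanned 27.5 kb and began 5740 bp inside the lower-coordinate end of the gene, a lone peak followed after a gap of 163 kb, and 10 peaks spanned 45.9 kb at 143348842 to 143395735. None of the 15 summits lay in the part that is shared with the noncoding transcript Kcnq1ot1 (143213111 to 143296547). The strongest peak (143385517 to 143386178, fold enrichment 8.47) lay in the third run, and the next strongest (8.13) lay in the first. Kcne1, the auxiliary subunit that slows the Kcnq1 channel, had 3 peaks in a gene of 13468 bp on chromosome 16. The strongest (92346180 to 92346962, 12.8) lay 640 bp inside the lower-coordinate end of the gene, and another (9.52) lay 714 bp outside the same end. The third (92355977 to 92356557) had a fold enrichment of 3.27, below the median of all peaks. Both subunits of the slow current thus had peaks, 15 of at most 8.47 at Kcnq1 and 3 at Kcne1, of which 2 were stronger than any at Kcnq1.

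Kcnh2 encodes the pore subunit of the rapid delayed rectifier. It had 7 peaks on chromosome 5, of which 4 lay inside the gene and 3 outside. The strongest (24337038 to 24338015, fold enrichment 15.9, rank 85 of 17587) lay inside the gene, at position -8019 from the internal start described with the promoters. Another (24352037 to 24352967, 12.5) lay 943 bp before the 5′ end of the gene body. The other 5 peaks had values of 3.20 to 4.25. Kcnj2, an inward rectifier that sets the resting potential, had no peak in or near its 10.7 kb gene. Its only peak lay on chromosome 11 at 111214945 to 111215585, 138324 bp beyond the gene, with a fold enrichment of 9.52. The next protein-coding gene from that summit was Kcnj16, another inward rectifier, at 187181 bp. Kcnj3, a subunit of the G protein-gated channel, had 3 peaks inside the gene with values of 3.39 to 3.80, each below the median of all peaks. The 5 cardiac genes therefore covered the range from weak internal peaks to a Kcnh2 peak of rank 85.

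**Figure D3:**
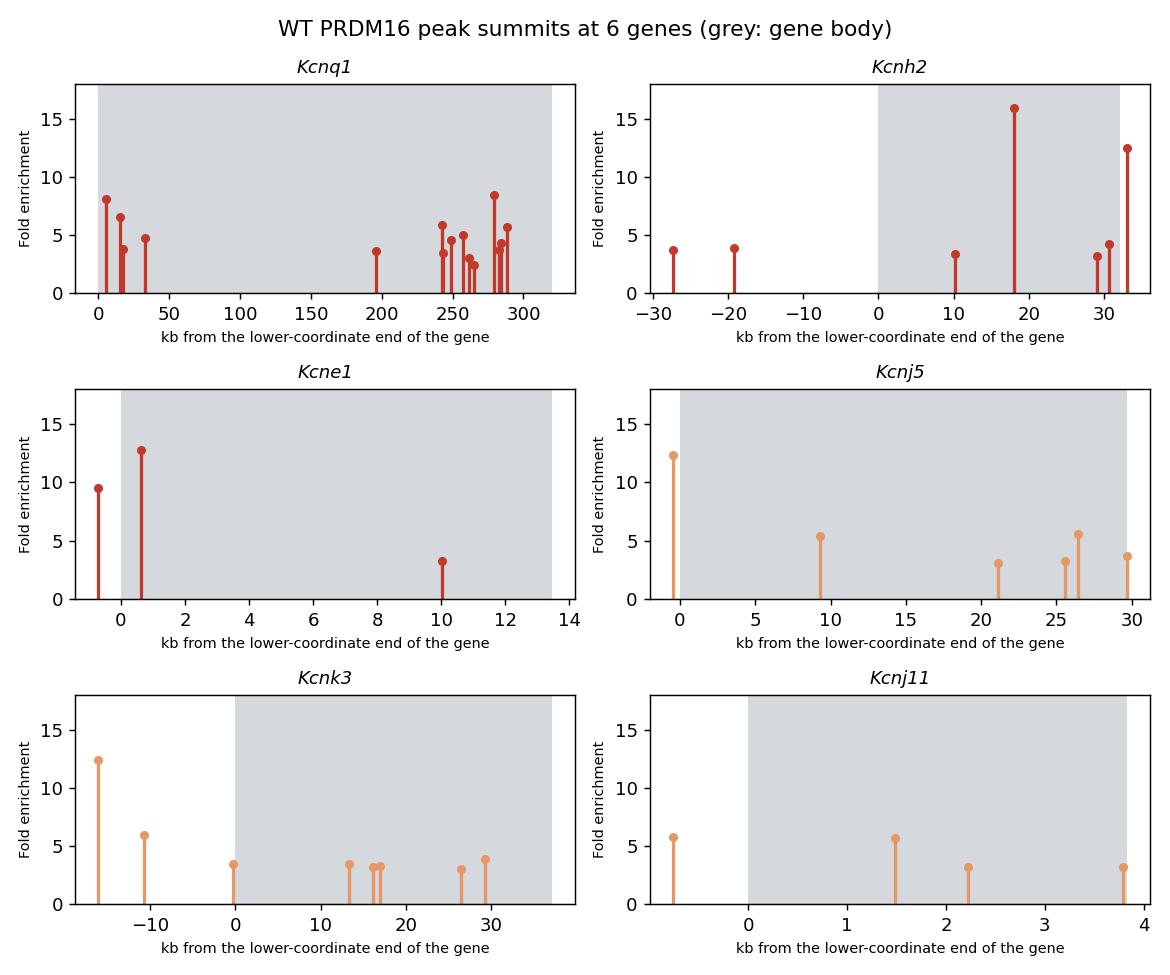
Each panel shows the wild-type PRDM16 summits of 1 gene, with distance in kb from the lower-coordinate end of the gene on the x axis, fold enrichment on the y axis and the gene body in grey. Kcnq1 has 15 summits, all inside the gene, while the strongest summits of Kcnk3 and Kcnj5 (12.4 and 12.3) lie outside.

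Among further heart members, Kcnk3, a tandem-pore background channel, had 8 peaks. The strongest (chromosome 5, 30571891 to 30572387, 12.4) lay 16083 bp outside the gene, another (3.48) lay 281 bp from its lower-coordinate end, and 5 lay inside with values of 3.04 to 3.93. Kcnj5 had 6 peaks, of which the strongest (chromosome 9, 32313888 to 32314532, 12.3) lay 461 bp past the 3′ end of the gene body. Kcna4 had 6 peaks of at most 5.25. Kcnd3 and Kcnd2, pore subunits of the transient outward current, had 5 and 3 peaks, with the strongest at 5.31 and 5.98. Kcna5, of the ultrarapid current, had 2 (at most 4.01, none inside the gene), and Kcnn2, a small-conductance calcium-activated channel, had 4 (at most 5.09). Kcnip2, the auxiliary subunit of the transient outward current, and Kcnj12, a further inward rectifier, had none.

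Kcnj8 and Kcnj11, the pore subunits of ATP-sensitive channels, stand next to the genes of their sulfonylurea receptors, Abcc9 and Abcc8. All 4 genes had peaks. Kcnj8 had 3 peaks inside its 6.78 kb gene body (4.13 to 6.64) and Abcc9 had 5 (at most 5.30). Kcnj11 had 4 peaks over 3.83 kb of gene body and its flank (3.20 to 5.82), of which 1 lay 40 bp and another 762 bp from a gene end, and Abcc8 had 2 (at most 7.42). Of 8 partner proteins outside the family, 5 had a peak, against 32.9% of all genes. Their 10 peaks came to 2.23 per Mb of the sequence nearest to the 8 genes, below the 5.80 of the family and the 6.46 of all genes. Beside Abcc8 and Abcc9 these genes were Akap9 (4.96), an anchoring protein that binds the Kcnq1 channel, Lrrc55 (4.12) and Dpp6 (3.84), with 1 peak each. Dpp10, Lrrc26 and Lrrc52 had none.

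Peaks of neuronal members were few but included the strongest of the family. Kcnj6, a G protein-gated inward rectifier of neurons, had 6 peaks. Its strongest peak (chromosome 16, 94721194 to 94722186, 17.5, rank 51 of 17587) lay 23300 bp past the 3′ end of the gene and 26161 bp from the next gene, Dyrk1a, a protein kinase, so that the assignment rests on a difference of a few kb. Kcnh7, a relative of Kcnh2, had 3 peaks, of which the strongest (chromosome 2, 63273291 to 63274397, 14.7) lay 89682 bp upstream of the gene, and the other 2 had values of 2.77 and 3.17. Kcnq3, a subunit of the M current, had 4 peaks (at most 6.38). The strongest peaks of the other neuronal members with peaks lay between 2.90 and 4.74: Kcnh5 (4.74), Kcnb2 (4.55), Kcnip1 (3.88), Kcnh1 (3.72), Kcnj9 (3.07) and Kcnh3 (2.90). Kcna1, Kcna2, Kcnc1, Kcnc2, Kcnh4, Kcnip4, Kcnk9, Kcnt1 and Kcnv1 were among those with none. For Kcnip4 and Kcnv1 that meant 0 peaks in 1354 and 1406 kb of nearest sequence.

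Members outside the 3 lists also had strong peaks. Kcng2, a silent voltage-gated subunit that modifies other channels, had 8 peaks, and the strongest (14.0) lay inside the gene. Kcnma1, the large-conductance calcium-activated channel, had 5 peaks, of which 2 inside the gene reached 11.7 and 10.6. Kcnq5, a relative of Kcnq1, had 6 peaks, all inside the gene (3.14 to 8.39). Kcnk10, a tandem-pore channel, had 3 (at most 7.52). By class, 18 of 40 voltage-gated subunits had a peak, 9 of 15 inward rectifiers, 3 of 14 tandem-pore channels, 6 of 8 calcium- or sodium-activated channels and 9 of 17 auxiliary subunits. In that order the shares were 45%, 60%, 21.4%, 75% and 52.9%, against 32.9% of all genes. Peaks per Mb were 9.45 for inward rectifiers, 7.32 for tandem-pore channels, 5.66 for voltage-gated subunits, 4.99 for auxiliary subunits and 3.95 for calcium- or sodium-activated channels. The tandem-pore value rests on 3 genes, Kcnk3, Kcnk10 and Kcnk13, of which Kcnk3 alone held 8 of 12 peaks.

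Of the 145 peaks, 100 (69.0%) had their summit inside the channel gene, against 58.9% for all peaks and their nearest genes. Summits within 1000 bp of either end of the gene numbered 15 (10.3%), against 15.9% of all peaks. They belonged to 11 genes: Kcna4, Kcne1, Kcnj5 and Kcnj11 with 2 each, and Kcnb2, Kcnh2, Kcnh3, Kcnk3, Kcnmb4, Kcnn1 and Kcnn2 with 1 each. A further 14 (9.66%) lay more than 50 kb outside, against 15.6%. Most channel peaks thus had their summit inside the gene. Exons and introns were not told apart here.

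Knockout ventricles served as the control of antibody specificity. Of the 145 channel peaks, 1 shared 1 bp or more with a knockout peak, against 1.12% of all wild-type peaks. That peak lay on chromosome 12 at 74803853 to 74804559, 92811 bp from Kcnh5, with a fold enrichment of 1.70 in wild type and 6.65 in the knockout. Reads at this region were the highest of the 145 in each ventricle library, with 404 in LV A, 412 in LV B, 417 in RV A and 514 in RV B. The 2 knockout peaks with a channel gene as nearest gene, out of 330, both lay there. None of the peaks of the cardiac or further heart members overlapped a knockout peak. With 1 knockout library this contrast was not tested, and the depths of both peak lists are unknown.

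LV and RV were then compared at the 145 regions. Each value of the deposited table was the mean of 2 libraries, from which whole reads per library were worked out. The letters A and B given to them carry no replicate number of the labels. Reads within all 17587 peaks came to 330443 in LV A, 184244 in LV B, 281797 in RV A and 267808 in RV B. A channel region held 8.0 reads per library at the median, so that single regions were measured with few reads. Normalized reads are reads times the authors' factor of each library, and log2 differences are RV over LV on the scale of log2 of normalized reads plus 1. In pooled tissue, fewer cells with bound PRDM16 and less binding per cell cannot be told apart.

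At the strongest Kcnh2 region normalized reads were 77.4 in LV A, 77.7 in LV B, 71.9 in RV A and 65.6 in RV B. The LV libraries lay above the RV libraries by less than the SE (log2 -0.17, SE 0.32). At the strongest Kcne1 region they were 39.5 in LV A, 32.2 in LV B, 45.03 in RV A and 29.9 in RV B, so that the ventricles overlapped (log2 0.04, SE 0.33). At the strongest Kcnq1 region they were 20.1 in LV A, 23.4 in LV B, 19.1 in RV A and 19.3 in RV B, again apart by less than the SE (log2 -0.17, SE 0.35). The region beyond Kcnj2 had 38.7 in LV A, 14.7 in LV B, 39.8 in RV A and 36.7 in RV B. Here LV library B alone was low, and the log2 of 0.65 (SE 0.36) became -0.018 without it. At the strongest Kcnj3 region reads were few, with 3 in LV A, 6 in LV B and 5 in each RV library (log2 -0.014, SE 0.64). None of these 5 regions passed the test (limma adjusted p of 0.807 to 0.998).

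**Figure D4:**
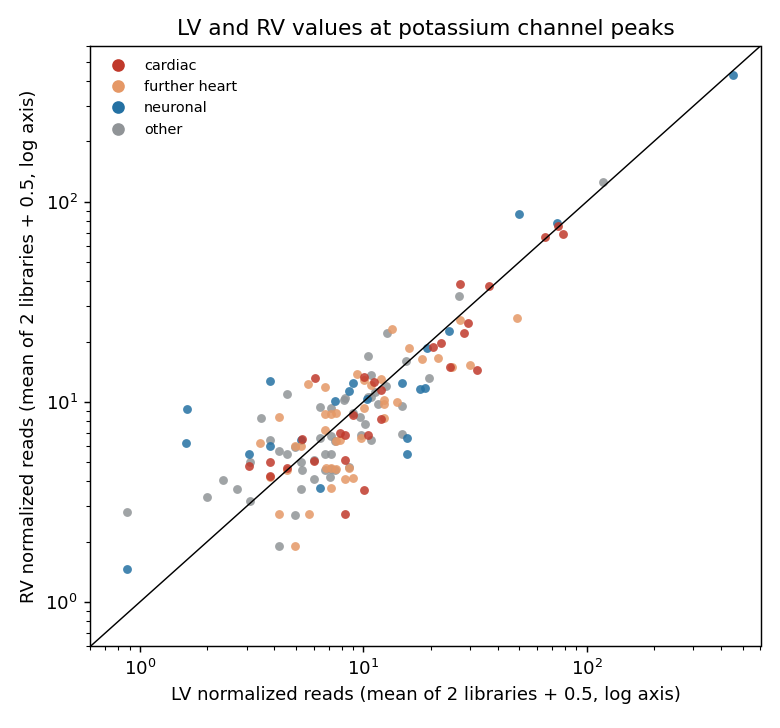
LV (x axis) and RV (y axis) normalized reads of the 145 potassium channel regions, each the authors' mean of 2 libraries plus 0.5 on log axes, with colours for the gene lists and a line of equal values. Points scatter around the line, with the Kcnh5 region that overlaps a knockout peak at the top right (453 and 429).

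Across all 17587 regions, limma gave an adjusted p under 0.05 at 0.0284% of regions and at 0 of the 145 channel regions (smallest adjusted p 0.542). In the authors' deposited table this was 0% of all regions and 0 of the 145. At an unadjusted p under 0.05 limma gave 17 of the 145 (11.7%), against 6.32% of all regions, of which 8 had the higher level in LV (3.13% of all regions) and 9 in RV (3.18%). This count moved both up and down when single libraries were left out, which leaves 1 library for a ventricle. It is not given for those fits, for which the share over all regions was not counted. The authors' deposited table gave 1 of the 145 at that level, against 0.483% of all regions, a share near the background. Both LV libraries lay above or below both RV libraries in 62 of the 145 regions (42.8%), against 35.4% of all regions, with LV above in 39 (17.9% of all regions) and RV above in 23 (17.6%). Without LV library A, 2 channel regions passed, those of Kcnj6 and Kcng2 described with the RV side, and limma then called 90 regions in all instead of 5.

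On the LV side, the regions of smallest p lay at Kcnq1, Kcnj9, Kcnj5, Kcnk3 and Kcnb2. The Kcnq1 region (143348842 to 143349666, the start of the third run) had normalized reads of 26.8 in LV A, 36.6 in LV B, 10.4 in RV A and 17.4 in RV B. Both LV libraries were above both RV libraries (log2 -1.16, SE 0.36, limma adjusted p = 0.568). The strongest Kcnj5 region had 48.4 in LV A, 48.3 in LV B, 24.2 in RV A and 27.01 in RV B, close within each ventricle and apart between them (log2 -0.89, SE 0.32, adjusted p = 0.61). The strongest Kcnk3 region had 29.8 in LV A, 29.3 in LV B, 11.3 in RV A and 18.3 in RV B (log2 -0.99, SE 0.35). The region of Kcnj9, a G protein-gated rectifier of neurons, had 12.7 in LV A, 17.6 in LV B, 5.196 in RV A and 4.82 in RV B (log2 -1.41, SE 0.46). That of Kcnb2, a delayed rectifier of neurons, had 18.6 in LV A, 11.7 in LV B, 3.46 in RV A and 8.68 in RV B (log2 -1.26, SE 0.48). In each of these 5 regions the LV libraries lay above the RV libraries, which follows largely from their choice by smallest p on the LV side. In none did the difference pass over all regions.

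On the RV side, 2 of the 5 regions of smallest p lay beside Kcnj6. The strongest Kcnj6 region had 63.3 normalized reads in LV A, 35.2 in LV B, 72.7 in RV A and 100.3 in RV B (log2 0.84, SE 0.34, adjusted p = 0.69). A weaker region next to it (94722320 to 94722626, fold enrichment 4.01) had 3 reads in LV A, 0 in LV B, 10 in RV A and 9 in RV B (log2 2.43, SE 0.73, adjusted p = 0.54). That region and the Kcng2 region, with 8 reads in LV A, 0 in LV B, 8 in RV A and 9 in RV B (log2 1.73, SE 0.74, adjusted p = 0.72), had no read in LV library B. Without LV library A they had limma adjusted p of 0.026 and 0.0496, with LV library B alone for the left ventricle and its spread taken to be like that of the others. The region inside Kcnh1, a voltage-gated channel of neurons, had 3 reads in LV A, 3 in LV B, 18 in RV A and 9 in RV B (log2 1.60, SE 0.55). A second Kcnq1 region in the third run (143389273 to 143389621) had 9 reads in LV A, 3 in LV B, 16 in RV A and 12 in RV B (log2 1.08, SE 0.47). Kcnq1 regions of both signs thus lay within 1 run of peaks, but neither passed. The limma adjusted p was 0.73 for this region and 0.57 for the one on the LV side.

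**Figure D5:**
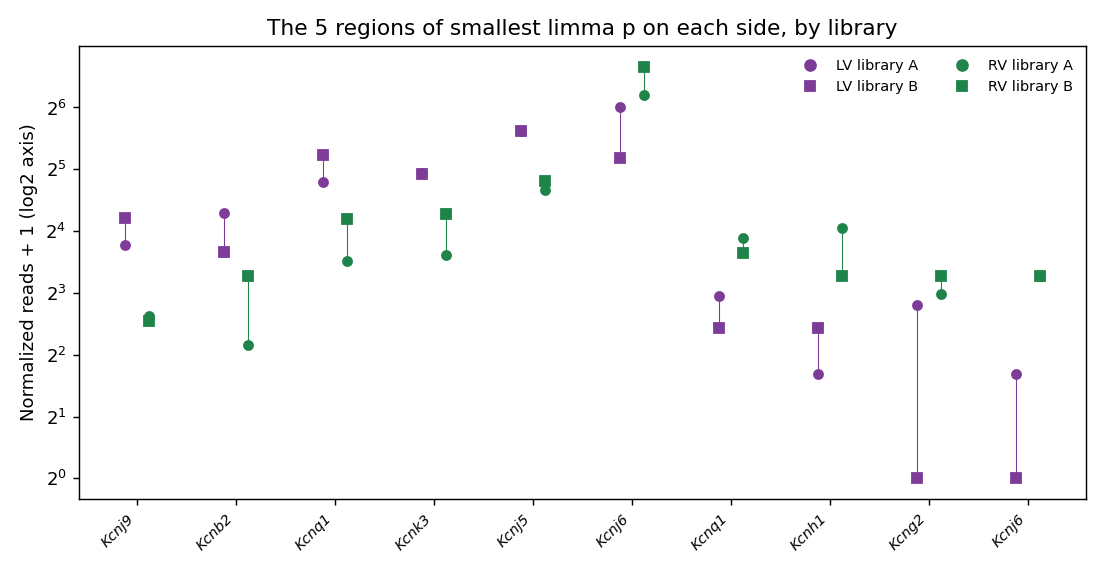
Normalized reads plus 1 (y axis, log2) in each LV library (purple) and RV library (green) at the 5 potassium channel regions of smallest limma p on each side, ordered by log2 RV over LV and labelled by nearest gene; lines join the 2 libraries of a ventricle. LV libraries lie above RV libraries in the 5 regions on the left and below in the 5 on the right, which follows largely from the choice by smallest p. LV library B has no read in the last 2.

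The median log2 RV over LV was -0.019 over the 145 channel regions and 0.01 over all regions, and the former had no stable sign. It was 0.017 with library totals, 0.033 with median-ratio factors and 0.021 without RV library A, but -0.13 without RV library B and -0.20 without LV library A. Of the 29 cardiac regions 18 were higher in LV (median -0.17), and of the 42 further heart regions 27 were (-0.20), against 49.3% of all regions. Of the 18 cardiac ones, 11 lay at Kcnq1. Of the 22 neuronal regions 9 were higher in LV (median 0.22), but this median was -0.01 when regions under 8 mean reads were left out and -0.11 without LV library A. Over the same alternatives the cardiac median stayed between -0.19 and -0.02 and the further heart median between -0.26 and -0.06. Where every region was kept, 15 to 22 of the 29 cardiac and 23 to 28 of the 42 further heart regions were higher in LV. With at least 8 mean reads, 11 of 18 and 12 of 21 were. In Kcnq1, 11 of 15 regions were higher in LV (8 to 12 of 15 over the alternatives that keep every region, and 7 of 10 when those under 8 mean reads were left out). Of the 11, 9 were among the 10 of the third run (median -0.21), while in the run of 4 peaks 1 was higher in LV (median 0.14). Some of the 9 were far smaller than the SE, such as -0.0005 (SE 0.71) at 143371625 and -0.051 (SE 0.42) at 143368314. At the former the authors' log2 ratio was 0.155, higher in RV. The signs within runs were not tested. Regions of 1 gene, and regions read in the same 4 libraries, are not independent, and the differences between lists were not tested.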

How the data were processed

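The members, lists and tests were chosen with earlier results of these data known. The authors deposited 1 peak list each for wild type and knockout, and an LV-RV table. Per the submitters' processing notes, BWA 0.7.12-r1039, MACS2 2.1.1.20160309, HOMER, DESeq2 and the builds GRCm38 and mm10 were used, with no role or order given. The pooling of replicates and the test behind the deposited p-value column are not stated in the labels. The deposited peak lists give a score, a fold enrichment (a ratio over background), and the -log10 q-value of each peak. The deposited table gives the signal of LV and of RV (normalized reads), log2 of their mean and ratio, and a p-value and adjusted p-value.

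Summits were assigned to the nearest protein-coding gene body of a RefSeq table (GRCm38.p6), and tied genes each kept the peak, which touched 1 channel peak, at Kcnb2. Nearest sequence was measured in steps of 1000 bp. Each LV and RV value was taken to be 0.5 plus an average of integer reads scaled by library factors, with exactly 1 solution at 100% of 17587 regions (tolerance 1e-07) and factors of 0.744 and 1.47 for LV libraries A and B and 0.866 and 0.965 for RV libraries A and B. limma 3.58.1 in R 4.3.3 was fitted to all regions with trend, on the log2 scale after adding 1 to the normalized reads, with Benjamini-Hochberg adjustment (threshold 0.05, n = 2 pools per ventricle, inputs not used). Both steps were also run on simulated data, with outcomes not reported here. Simulated ventricle differences were placed only in regions of at least 8 mean reads, so that regions with fewer reads were not covered. The remaining steps ran in Python 3.11.15 (pandas 2.3.3, numpy 2.4.6, matplotlib 3.10.9). Genes were named by rule: the cardiac members, heart and neuronal members with a peak, the 10 members with the strongest and the 10 with the most peaks, those with a summit within 1000 bp of a gene end or over a knockout peak, and, for LV against RV, 5 regions per direction by smallest p; other members are named as listed without a peak or to complete a class. A few members are not reported by name here. Alternatives were other assignment distances, peak thresholds, overlaps, pseudocounts, read minimums, scalings and leaving out each library. The promoter table has no entry for Kcnq1, Kcne1, Kcnk3 and Kcnj11, among others, so that their position is given from gene ends only.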

Additional observations from a re-analysis of the deposited data

How the results depend on the processing

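Counts of genes and peaks followed the threshold. Channel genes with a peak numbered 24 at a fold enrichment of at least 5 (25.5% of members, against 13.49% of all genes). Channel peaks numbered 39 of 145 at that threshold, against 4589 of all 17587 peaks. When -log10 q had to reach 5, they numbered 93 of 145, against 11965 of all 17587 peaks. Counting any gene within 50000 bp gave 63 genes (67.0%, against 56.0% of all genes). A peak without knockout overlap was found at 45 genes (47.9%, against 32.6% of all genes). The number of channel regions past the LV against RV test was 0 with the other pseudocounts, read minimum and scalings and in the authors' deposited table, and 0 to 2 when a library was left out, with 2 without LV library A. The median log2 of channel regions was -0.20 to 0.021 when a library was left out. The Kcne1 region changed sign without LV library B (-0.10) or RV library A (-0.25), with a range up to 0.33, and the Kcnj2 region without LV library B (-0.018, with a range up to 1.33). The Kcnj3 region changed sign at a pseudocount of 0.1 (0.036), with library totals (0.024), with median-ratio factors (0.038), without LV library B (0.79) and without RV library A (0.05), over a range of -0.81 to 0.79; the cause was not tested. No paired analysis was possible because the columns of the table carry no replicate number. With 8.0 reads at the median region, small differences at single regions were not detectable.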
